A study of Homo sapiens with 16 samples.

Results

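The samples described are the 4 vehicle libraries of HCC4006, an established human non-small cell lung cancer line, out of 16 libraries in all. They were chosen by their label: treatment with DMSO, the solvent, and no compound. Cells had been kept in RPMI-1640 medium with 10% fetal bovine serum, plated at 25% confluency, grown for 24 hours, given DMSO for 24 hours, then trypsinized and frozen. The rest of the series holds 4 libraries each of cells given 100 nM gefitinib, an EGFR kinase inhibitor, 100 nM of the tankyrase inhibitor AZ1366, or both, and none of these is compared here. The libraries are called CTRL 1 to CTRL 4. HCC4006 is one line grown without stroma or immune cells. Separate cultures are not stated in the labels, so the spread between them may be technical. Each value answers one question: how much of a transcript was there in cells given neither compound.

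HCC4006 carries an activating mutation of EGFR, the receptor kinase on which such lung adenocarcinoma cells commonly depend. EGFR pairs with ERBB2 or ERBB3 and signals through RAS and ERK, which induce cyclin D1 and a set of phosphatases that damp the pathway. Other receptor kinases, among them MET and AXL, reach the same effectors. In Wnt signalling a complex built on AXIN marks beta-catenin for destruction, and tankyrases, by tagging AXIN for degradation, limit that complex. AXIN2, NKD1 and LGR5 are well-known genes that beta-catenin switches on. Tankyrases also act on angiomotins, which hold back YAP and TAZ, the transcription cofactors of the Hippo pathway.

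Levels are FPKM, fragments scaled to transcript length and to the mapped fragments of the library, which can be compared between genes. The libraries summed to between 433357 and 453056 FPKM over 24293 loci. Read counts were not analysed here, so each value comes with an unknown depth and without a counting interval. A gene is called present when it stood at 1 FPKM or more in all 4 libraries. Of all loci, 11370 (46.8%) were present, 5931 (24.4%) were listed at 0 in all 4, and the median over all loci was 0.684 FPKM. Each share of a gene list below is read beside that 46.8%. Errors are the SD over the 4 libraries (n = 4), and 2 genes are said to differ in level only where their 4 values do not overlap. Genes named together as the leading members of a list are given by their means, and may overlap. Since 1 group is described, no test was made. CTRL 1 stood apart from the other 3 more often than any of them did, as shown after the gene groups.

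The most abundant transcripts were those of the cytoskeleton, translation and glycolysis. ACTB, encoding beta-actin, ranked first at 4343 ± 115 FPKM. TMSB4X, encoding the actin-binding thymosin beta, was at 3376 ± 295 FPKM, and its 4 values ran from 3112 to 3648. Its values overlapped those of GAPDH (3140 ± 126 FPKM), which in turn overlapped those of EEF1A1 (3036 ± 148 FPKM), and ACTG1 stood below these at 2620 ± 50.5 FPKM. The 10 most abundant loci made up 6.08 ± 0.0638% of the summed FPKM, the top 100 made up 27.6 ± 0.622% and the top 1000 made up 62.4 ± 0.842%. Ribosomal protein genes filled at least 45 of the top 100 places, and the 75 of their loci that were counted held 14.4 ± 0.650% of the sum. Some loci joined with other symbols were not counted, that of RPS10 (1034 ± 31.3 FPKM, rank 50) among them. The first 20 loci also held S100A6, a calcium-binding protein gene (2026 ± 68.8 FPKM, rank 8), and KRT7, a keratin gene of simple epithelia (1763 ± 172 FPKM, rank 13). Glycolysis genes held 2.57 ± 0.0806% of the sum. PKM (1683 ± 75.3 FPKM), ENO1 (1519 ± 68.3 FPKM) and ALDOA (1320 ± 72 FPKM) led them after GAPDH, and the liver forms PKLR (0.00616 ± 0.0123 FPKM) and SLC2A2 (listed at 0) were near the floor.

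**Figure D1:**
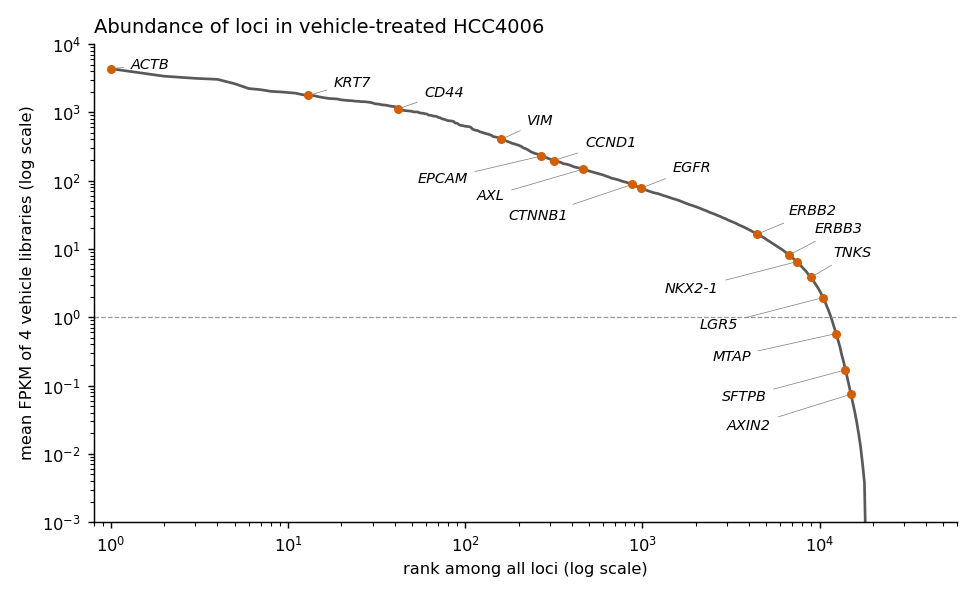
Mean FPKM of the 4 vehicle libraries (vertical, log scale) against rank among all loci (horizontal, log scale), with 17 genes named and a dashed line at 1 FPKM. KRT7 sits at 1763 FPKM, EGFR at 77.7 FPKM and AXIN2 at 0.0746 FPKM, well to the right of the point where the curve falls below 1 FPKM.

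Keratins of simple epithelia, the filament proteins of glandular and airway lining cells, were the most abundant of their family. KRT7 read 1876, 1946, 1627 and 1606 FPKM in CTRL 1 to 4, and KRT8 (1454 ± 136 FPKM), KRT18 (1050 ± 76.5 FPKM) and KRT19 (801 ± 54.5 FPKM) followed. The values of KRT7 and KRT8 overlapped, while KRT8, KRT18 and KRT19 kept this order without overlap. KRT20, a keratin of intestinal epithelium, was at 0.00814 ± 0.0163 FPKM. Of the keratins of basal and squamous epithelium, KRT5 and KRT14 were at 0.0782 ± 0.0201 and 0.223 ± 0.0437 FPKM. KRT16 (2.41 ± 0.408 FPKM) and KRT15 (1.69 ± 0.161 FPKM) were present at low levels. KRT6A (1.06 ± 0.179 FPKM), KRT6B (0.803 ± 0.227 FPKM) and KRT17 (0.603 ± 0.114 FPKM) were not present in all 4 libraries. Of 56 keratin loci, 10 were present and 17 were listed at 0 in all 4 libraries.

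Genes of epithelial junctions were present without exception, 24 of 24, as were all 15 epithelial regulators. EPCAM, an epithelial adhesion molecule, read 211, 237, 241 and 227 FPKM. CDH1, encoding E-cadherin, read 182, 174, 169 and 169 FPKM, all below the lowest EPCAM library. The protease inhibitor gene SPINT2 (246 ± 7.56 FPKM), MAL2 (238 ± 7.36 FPKM), which encodes an apical transport protein, and ST14 (105 ± 13.2 FPKM), which encodes the protease matriptase, were among the highest regulators. The splicing regulator ESRP1 stood at 36.7 ± 1.99 FPKM and the epithelial transcription factor GRHL2 at 5.50 ± 0.473 FPKM.

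Genes usually listed as mesenchymal were present beside them, 23 of 27. VIM, encoding vimentin, read 434, 412, 400 and 365 FPKM, which was 2.32 ± 0.106 times CDH1. TGFBI (985 ± 62.9 FPKM), a secreted product known to be induced by TGF-beta, and THBS1 (459 ± 25.3 FPKM), encoding thrombospondin, were higher still. CDH2, encoding N-cadherin, was at 19.6 ± 0.903 FPKM, so E-cadherin exceeded it 8.85 ± 0.157-fold, and FN1, encoding fibronectin, was at 18.2 ± 1.96 FPKM. Among transcription factors of the mesenchymal state SNAI2 (12.1 ± 1.14 FPKM), TWIST1 (3.85 ± 0.979 FPKM) and TWIST2 (3.43 ± 0.375 FPKM) were present. SNAI1 (0.908 ± 0.211 FPKM), ZEB1 (0.631 ± 0.0896 FPKM) and ZEB2 (0.151 ± 0.0410 FPKM) were not. Fibroblast markers were low in the same libraries: 2 of 13 were present, COL1A1 lay at 1.73 ± 0.125 FPKM, COL3A1 at 0.00207 ± 0.00248 FPKM in a locus joined with other symbols, LUM at 0.325 ± 0.0372 FPKM and DCN was listed at 0.

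Most of the listed lung and foregut factors were present, while the surfactant genes of mature alveolar cells were near 0. NKX2-1, the transcription factor that marks lung lineage and most lung adenocarcinomas, read 7.09, 7.17, 6.30 and 5.45 FPKM. FOXA1, a pioneer factor of foregut epithelium, stood higher at 15.7 ± 0.617 FPKM, and 17 of 23 lung and foregut factors were present, led by the ETS factor genes EHF (89.1 ± 2.17 FPKM) and ELF3 (38.3 ± 3.58 FPKM), by ID1 (39.0 ± 1.88 FPKM) and by KLF5 (26.5 ± 1.89 FPKM). Of 13 genes of alveolar type II cells, which make surfactant, 4 were present, and the surfactant genes and NAPSA were not. SFTPB, encoding surfactant protein B, read 0.197, 0.192, 0.118 and 0.169 FPKM. NAPSA, the aspartic protease that processes it, was at 0.164 ± 0.0268 FPKM. The remaining surfactant genes were lower: SFTPD lay at 0.0796 ± 0.0398 FPKM, SFTPA2 at 0.0330 ± 0.0168 FPKM, SFTPA1 at 0.00787 ± 0.00543 FPKM and SFTPC at 0.00374 ± 0.00747 FPKM. The 4 type II genes that were present were LPCAT1 (69.5 ± 5.09 FPKM) and CTSH (62.9 ± 7.11 FPKM), both expressed in many tissues, the lipid transporter gene ABCA3 (3.37 ± 0.412 FPKM) and the phosphate transporter gene SLC34A2 (2.02 ± 0.0523 FPKM). LAMP3 stood at 0.780 ± 0.144 FPKM. Next to NKX2-1 on chromosome 14, the surfactant-associated gene SFTA3 was present at 3.71 ± 0.328 FPKM.

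The promoter of SFTPB is shown as that of a lineage gene near 0. It covers 250 bases before to 50 after the RefSeq start (GRCh38.p14, chr2:85668692-85668991, minus strand), 5′ to 3′, with each CG dinucleotide in capitals, and it holds 1 of them.
SFTPB: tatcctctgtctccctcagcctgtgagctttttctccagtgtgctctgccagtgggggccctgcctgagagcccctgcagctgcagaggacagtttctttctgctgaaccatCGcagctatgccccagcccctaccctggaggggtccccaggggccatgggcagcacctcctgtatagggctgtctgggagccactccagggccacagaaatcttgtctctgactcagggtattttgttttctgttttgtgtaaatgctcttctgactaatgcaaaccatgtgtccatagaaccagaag

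Markers of other lung cell types were present in part. Of the alveolar type I list 4 of 9 genes were present, CAV1, encoding the coat protein of caveolae (250 ± 12.9 FPKM), EMP2 (22.8 ± 0.381 FPKM), RTKN2 (3.72 ± 0.234 FPKM) and HOPX (1.67 ± 0.134 FPKM). AGER (0.267 ± 0.0877 FPKM, a symbol held by several loci) and PDPN (0.00442 ± 0.00360 FPKM) were under 1 and AQP5 was listed at 0. The secretory cell genes SCGB1A1, SCGB3A2 and BPIFA1 were listed at 0 in all 4 libraries, SCGB3A1 was at 0.0217 ± 0.0258 FPKM and the gel-forming mucin MUC5B at 0.0630 ± 0.0202 FPKM. Of 24 genes of the secretory and goblet list 9 were present (37.5%), with a list median of 0.200 FPKM. Among those present were AGR2, a disulfide isomerase of mucus-making cells, at 138 ± 10.4 FPKM, and the membrane mucin MUC1 at 54.4 ± 4.75 FPKM. WFDC2 stood at 34.6 ± 2.97 FPKM and the goblet cell factor SPDEF at 34.3 ± 3.95 FPKM. The basal cell factor TP63 (0.746 ± 0.0531 FPKM) stayed under 1 FPKM in every library. Other genes of the basal and squamous list were present, 6 of 17, led by S100A2 (58.3 ± 3.13 FPKM) and PERP (57.3 ± 1.67 FPKM). In the ciliated list 1 of 13 genes was present, the dynein gene DNAH5 (2.33 ± 0.0467 FPKM), and the ciliogenesis factor FOXJ1 was at 0.0422 ± 0.0219 FPKM. In the neuroendocrine list 2 of 16 were present, ENO2 (11.8 ± 1.05 FPKM) and UCHL1 (3.82 ± 0.418 FPKM), and 6 were listed at 0, among them the factors NEUROD1 and INSM1. CHGA stood at 0.00765 ± 0.0153 FPKM.

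Markers of leukocytes, endothelium, blood and liver were near 0 apart from single genes. Of 16 leukocyte genes, CD68 alone was present (35.3 ± 1.67 FPKM), a lysosomal protein that is not limited to macrophages. PTPRC, encoding the pan-leukocyte antigen CD45, stood at 0.0333 ± 0.0114 FPKM, CD14 at 0.477 ± 0.0769 FPKM and CD3E was listed at 0. The summed leukocyte list ran from 35.7 to 39.6 FPKM over the 4 libraries. Of 11 endothelial genes, ENG (16.5 ± 2.25 FPKM) and ESAM (1.54 ± 0.0891 FPKM) were present, and PECAM1 (0.0890 ± 0.0230 FPKM), CDH5 (0.138 ± 0.00914 FPKM) and VWF (0.0363 ± 0.00564 FPKM) were not. No erythroid gene of 7 was present. One hepatocyte gene of 14 was present, SERPINA1, encoding alpha-1 antitrypsin (49.7 ± 2.50 FPKM), while ALB, APOA1, APOB, TTR and 4 further genes of that list were listed at 0. In the intestinal list the adhesion molecule gene CEACAM6 was at 441 ± 12.6 FPKM, 95.8 ± 4.97 times its neighbour CEACAM5 (4.61 ± 0.260 FPKM). The intestinal factor CDX2 crossed the limit between libraries, with 1.27, 1.17, 0.824 and 1.20 FPKM, and VIL1 was at 0.00563 ± 0.0113 FPKM.

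**Figure D2:**
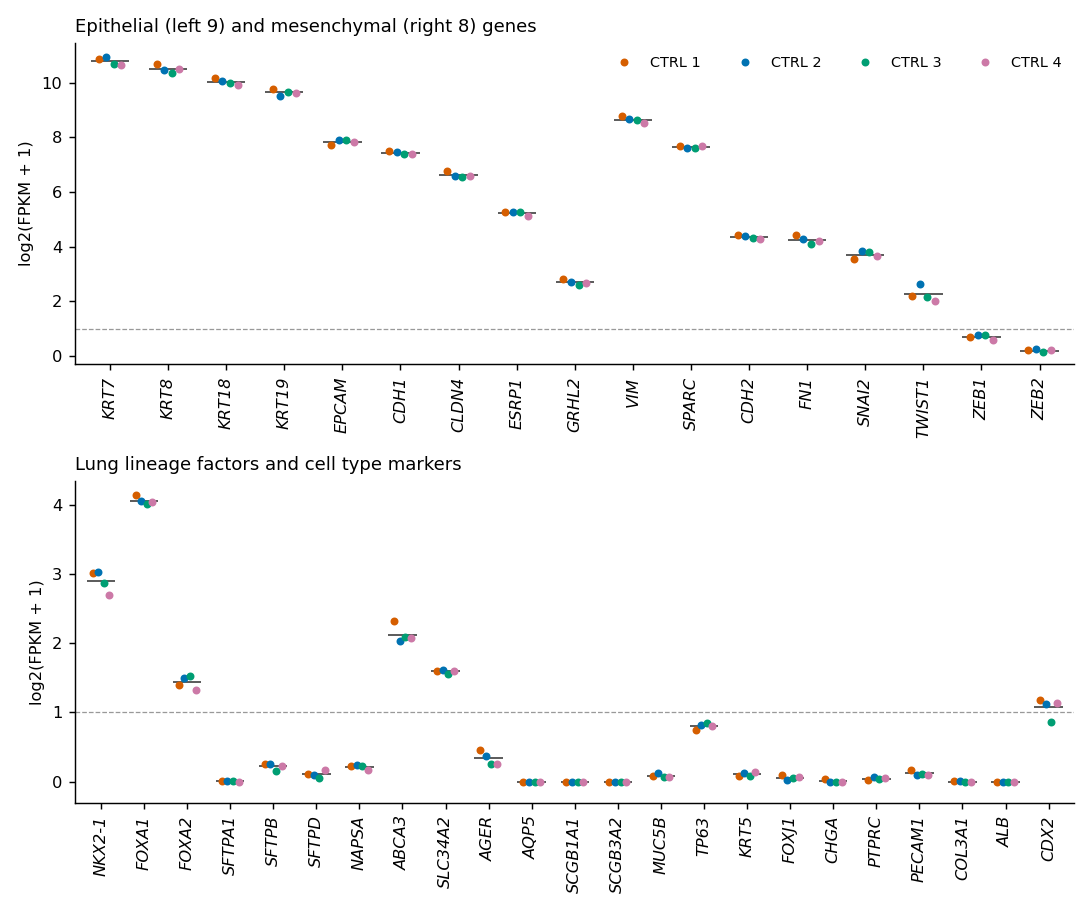
Values of log2(FPKM + 1) of each vehicle library (points, one colour per library) and their mean (bar) for epithelial and mesenchymal genes (upper panel) and for lung lineage factors and cell type markers (lower panel). The dashed line marks 1 FPKM. The 4 libraries lie close together at nearly every gene. KRT7 at 1763 FPKM and VIM at 403 FPKM stand high together, and NKX2-1 (6.50 FPKM) stands above the line while SFTPB (0.169 FPKM) stands below it.

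EGFR was the most abundant ERBB receptor, at 84.0, 77.1, 74.8 and 74.7 FPKM in CTRL 1 to 4. Its rank among all loci was 986 (hg19 chromosome 7, 55086725 to 55275031). ERBB2, the partner receptor without a known ligand, read 19.8, 14.9, 14.7 and 16.4 FPKM (chromosome 17, 37844393 to 37884915). ERBB3, which binds neuregulins and has little kinase activity of its own, read 9.21, 7.30, 7.73 and 8.31 FPKM. The 3 did not overlap: EGFR exceeded ERBB2 4.76 ± 0.433-fold, and ERBB2 exceeded ERBB3 2.02 ± 0.104-fold. All 3 were highest in CTRL 1. ERBB4, another neuregulin receptor, was at 0.00763 ± 0.00547 FPKM. The deposited values give one level per locus, so transcripts of the mutant and the normal EGFR allele are not separated.

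The promoter of EGFR is shown as that of the drug target. It is taken in the same way (RefSeq, GRCh38.p14, chr7:55018767-55019066, plus strand) and holds 33 CG dinucleotides, in capitals.
EGFR: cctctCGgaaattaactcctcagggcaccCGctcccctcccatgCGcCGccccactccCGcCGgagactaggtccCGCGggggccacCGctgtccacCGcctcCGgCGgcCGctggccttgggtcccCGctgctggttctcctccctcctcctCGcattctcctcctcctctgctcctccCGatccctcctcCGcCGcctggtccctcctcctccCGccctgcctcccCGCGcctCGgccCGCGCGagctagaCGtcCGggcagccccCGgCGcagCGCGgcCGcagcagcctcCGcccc

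The cells made transcripts of several EGF family ligands. TGFA, a ligand of EGFR, was highest at 21.4, 19.4, 20.4 and 19.9 FPKM, and NRG1, a neuregulin that binds ERBB3 and ERBB4, followed at 10.8, 11.8, 12.3 and 10.4 FPKM. HBEGF (7.82 ± 0.321 FPKM) and AREG, encoding amphiregulin (6.13 ± 0.495 FPKM, a symbol held by more than 1 locus), completed the 4 of 11 that were present. These 4 ligands kept their order without overlap. BTC (0.566 ± 0.174 FPKM), EGF (0.256 ± 0.0392 FPKM) and EREG (0.144 ± 0.0240 FPKM) lay under 1 FPKM, and NRG3 was listed at 0. All 8 genes of ligand shedding were present, with the metalloproteinase genes ADAM9 (168 ± 3.63 FPKM), ADAM10 (45.9 ± 2.75 FPKM), ADAM15 (40.8 ± 5.77 FPKM) and ADAM17 (18.4 ± 1.03 FPKM) at the top.

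Downstream of the receptor 20 of 24 adaptors and regulators were present. ERRFI1, a feedback inhibitor of EGFR (64.6 ± 2.73 FPKM), PTPN11, the phosphatase SHP2 (53.1 ± 2.15 FPKM), and the adaptors GRB2 (44.1 ± 2.15 FPKM) and SHC1 (32.5 ± 1.47 FPKM) led, and these 4 did not overlap. Of the RAS to ERK core 19 of 22 were present. NRAS has no level of its own, since its locus is joined with another gene. Of the members with a locus of their own, RRAS2 (64.8 ± 6.42 FPKM), MAP2K1 (50.5 ± 2.48 FPKM) and RASA1 (39.4 ± 1.05 FPKM), a RAS inhibitor, had the highest means. MAPK3, encoding an ERK kinase, stood at 37.3 ± 1.86 FPKM and HRAS at 21.8 ± 1.87 FPKM. BRAF was at 3.26 ± 0.364 FPKM, below ARAF (24.1 ± 0.777 FPKM) in every library.

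Genes that ERK activity is known to induce were present in 19 of 25 cases. CCND1, encoding cyclin D1, read 210, 193, 191 and 193 FPKM. IER3 (81.9 ± 1.43 FPKM, a symbol held by several loci), FOSL1 (49.6 ± 5.82 FPKM) and PHLDA1 (38.8 ± 1.32 FPKM) followed. DUSP6, encoding the cytoplasmic ERK phosphatase, varied little, with 23.5, 23.6, 23.0 and 23.8 FPKM. MYC was modest at 5.69, 6.63, 5.82 and 4.77 FPKM, and the immediate early gene FOS was at 0.937 ± 0.0829 FPKM. In the PI3K and mTOR list 20 of 21 genes were present, led by AKT1 (69.6 ± 5.78 FPKM), RHEB (61.4 ± 2.86 FPKM), the phosphatase gene INPP4B (35.6 ± 0.367 FPKM) and AKT2 (18.4 ± 1.52 FPKM).

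Among the other receptor tyrosine kinases 20 of 47 were present (42.6%), near the share of all loci, with a median of 0.545 FPKM. AXL, which binds GAS6, read 159, 141, 141 and 150 FPKM (chromosome 19, 41725108 to 41767671), 1.91 ± 0.0728 times EGFR. MET, the receptor of HGF, read 105, 106, 106 and 106 FPKM (chromosome 7, 116312459 to 116438440). MET was also among the 10 least variable loci with a mean of 5 FPKM or more, with a coefficient of variation of 0.534%. Each AXL library lay above each MET library, and each MET library above each EGFR library. The collagen receptor gene DDR1 (66.5 ± 6.21 FPKM, several loci) and the ephrin receptor genes EPHA2 (64.5 ± 7.65 FPKM) and EPHB2 (50.5 ± 3.86 FPKM) came next. IGF1R (5.33 ± 0.241 FPKM) and FGFR1 (3.66 ± 0.240 FPKM) were present at low levels, and INSR was at 0.467 ± 0.0571 FPKM. ALK (0.0878 ± 0.0224 FPKM), ROS1 (0.0829 ± 0.0110 FPKM) and RET (0.0262 ± 0.0117 FPKM), which are fused in other lung cancers, were all under 0.1 FPKM in the mean, and INSRR and TIE1 were listed at 0.

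Ligands of these kinases were present in 22 of 42 cases. The AXL ligand gene GAS6 read 70.0, 50.4, 51.7 and 53.2 FPKM, with CTRL 1 above the other 3, and exceeded PROS1, the other ligand of that receptor family (11.2 ± 0.298 FPKM), 5.02 ± 0.761-fold. HGF, the ligand of MET, was listed at 0, as was FGF10, while the neurite growth factor gene MDK (59.5 ± 2.09 FPKM) and FGFBP1, which encodes a carrier of FGFs (61.3 ± 3.68 FPKM), stood beside GAS6 at the top of the list with overlapping values. VEGFC (20.6 ± 0.610 FPKM), VEGFA (17.4 ± 1.01 FPKM), FGF2 (15.9 ± 0.656 FPKM) and FGF5 (14.8 ± 0.933 FPKM) were present. IGF1 was at 0.0584 ± 0.0233 FPKM.

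**Figure D3:**
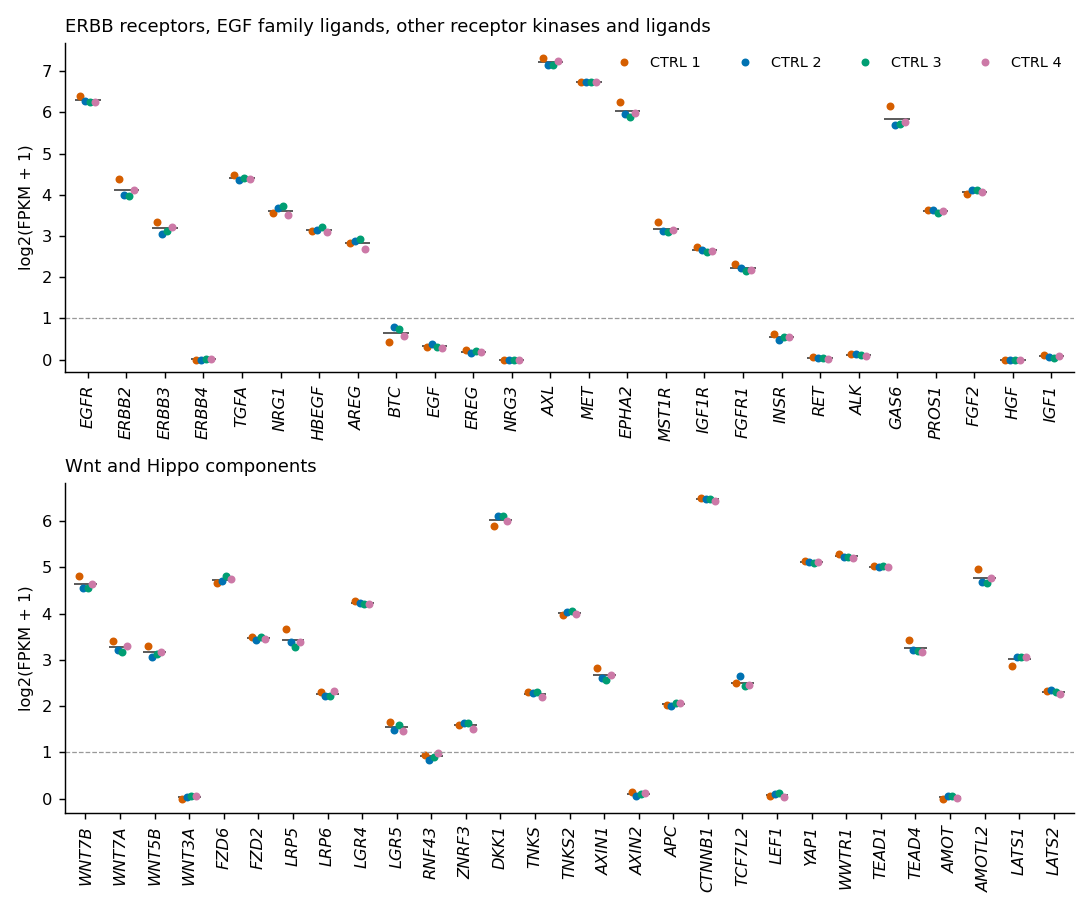
Values of log2(FPKM + 1) of each vehicle library (points, one colour per library) and their mean (bar) for ERBB receptors, EGF family ligands, other receptor kinases and their ligands (upper panel), and for Wnt and Hippo components (lower panel). The dashed line marks 1 FPKM. AXL (148 FPKM) and MET (106 FPKM) stand above EGFR (77.7 FPKM), HGF is at 0, and AXIN2 (0.0746 FPKM) lies near the floor beside CTNNB1 (87.8 FPKM).

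Tankyrase genes were both present. TNKS2 read 14.7, 15.3, 15.6 and 14.9 FPKM (chromosome 10, 93558151 to 93625232) and TNKS read 3.92, 3.87, 3.93 and 3.61 FPKM (chromosome 8, 9413445 to 9639856), a ratio of 3.95 ± 0.150. Of the destruction complex and tankyrase list 15 of 17 genes were present. The casein kinase gene CSNK1A1 (161 ± 2.1 FPKM) and CTNNB1, encoding beta-catenin (89.3, 88.1, 88.8 and 85.2 FPKM), were highest, with CSNK1D (41.9 ± 2.49 FPKM) and GSK3A (29.4 ± 1.4 FPKM) after them. The scaffold AXIN1 read 6.09, 5.07, 4.94 and 5.34 FPKM and APC 3.04, 2.99, 3.2 and 3.18 FPKM. RNF146, the ligase that recognizes proteins modified by tankyrase, was at 8.36 ± 0.610 FPKM.

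The second axin was nearly absent: AXIN2, a standard readout of beta-catenin, read 0.101, 0.0353, 0.0730 and 0.0897 FPKM (chromosome 17, 63524683 to 63557740). Some other genes known as Wnt targets or mediators, picked after their values were seen, were also near the floor. NKD1 was at 0.0104 ± 0.00975 FPKM, LEF1 at 0.0564 ± 0.0287 FPKM, NOTUM at 0.113 ± 0.0349 FPKM and ASCL2 at 0.00350 ± 0.00700 FPKM. LGR5 was present at 2.15, 1.81, 2.02 and 1.77 FPKM. RNF43, which removes Frizzled receptors, stayed just under 1 FPKM in all 4 libraries (0.913, 0.787, 0.877 and 0.980), while its relative ZNRF3 was at 2.02 ± 0.112 FPKM. In the list of Wnt transcription and feedback genes 10 of 17 were present, led by the coactivators BCL9L (19.2 ± 1.74 FPKM) and PYGO2 (10.4 ± 0.673 FPKM) and the corepressors TLE1 (8.32 ± 0.592 FPKM) and TLE3 (6.53 ± 0.456 FPKM). TCF7L2 was the highest TCF factor at 4.68 ± 0.394 FPKM.

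Wnt ligands were present in 7 of 19 cases. WNT7B read 27.3, 22.4, 22.4 and 23.8 FPKM and stood above WNT7A (8.68 ± 0.689 FPKM) and WNT5B (7.98 ± 0.615 FPKM), which overlapped. WNT9A followed at 3.75 ± 0.400 FPKM, and WNT1, WNT8A and WNT9B were listed at 0. Of 27 receptors and secretion genes 16 were present, with the receptor kinase RYK (33 ± 1.4 FPKM), the Wnt carrier WLS (29.7 ± 1.32 FPKM), FZD6 (25.6 ± 1.29 FPKM) and LGR4 (17.7 ± 0.448 FPKM) at the top. The coreceptors LRP5 and LRP6 were at 9.82 ± 1.28 and 3.81 ± 0.187 FPKM. R-spondins, which bind LGR receptors and amplify Wnt signals, were near 0: RSPO1 and RSPO2 were listed at 0, and RSPO3 and RSPO4 were at 0.0209 ± 0.0322 and 0.0207 ± 0.0191 FPKM. Of 14 secreted inhibitors and their receptors 3 were present. DKK1, which blocks LRP coreceptors, read 58.3, 68.4, 68.1 and 63.4 FPKM, DKK3 was at 47.7 ± 3.42 FPKM and KREMEN2 at 2.77 ± 0.510 FPKM, whereas SFRP4 and FRZB were listed at 0.

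The Hippo pathway was nearly complete at the transcript level, with 17 of 18 kinases and angiomotins, 9 of 10 cofactors and 21 of 22 target genes present. WWTR1, encoding TAZ, read 38.1, 36.6, 36.3 and 35.7 FPKM, each above each value of YAP1 (34.1, 33.6, 32.9 and 33.8 FPKM), at 1.09 ± 0.0263 times the latter. TEAD1, the most abundant of their DNA-binding partners, stood at 31.4 ± 0.172 FPKM and TEAD4 at 8.55 ± 0.821 FPKM. AMOT, the founding angiomotin, was at 0.0207 ± 0.0171 FPKM, while AMOTL2 (26.3 ± 2.84 FPKM) and AMOTL1 (9.27 ± 0.205 FPKM) were present. MOB1A (84.9 ± 14.3 FPKM), SAV1 (53.1 ± 2.69 FPKM) and WWC1 (35.2 ± 2.12 FPKM), cofactors of the LATS and MST kinases, led that list. Of the targets, the tissue factor gene F3 (228 ± 11.9 FPKM), NT5E (186 ± 7.69 FPKM), AXL and MYOF (129 ± 4.48 FPKM) were highest. CYR61 stood at 128 ± 5.59 FPKM and CTGF at 19.5, 19.6, 19.7 and 19.7 FPKM.

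Other signalling routes were present in part. TGF-beta receptors and SMADs numbered 16 of 21, with TGFBR2 (32.7 ± 1.32 FPKM), SMAD3 (29.4 ± 1.34 FPKM), the coreceptor gene ENG, named above, and TGFBR1 (15.0 ± 0.403 FPKM) highest. Their ligands and antagonists numbered 15 of 31, led by FSTL3 (51.0 ± 4.25 FPKM), INHBB (36.8 ± 2.78 FPKM), BMP1 (31.1 ± 3.2 FPKM) and LTBP2 (28.8 ± 2.76 FPKM), with TGFB1 at 24.0 ± 2.83 FPKM. In the Notch list 12 of 18 were present. RBPJ, its DNA-binding factor (37.2 ± 2.50 FPKM), NUMB (24.6 ± 0.425 FPKM), NOTCH2 (24.5 ± 0.793 FPKM) and JAG1 (11.3 ± 0.436 FPKM) led, and NOTCH2 stood above NOTCH1 (2.43 ± 0.407 FPKM) and NOTCH3 (2.23 ± 0.345 FPKM). Hedgehog components were scarce: 3 of 11 were present, SUFU (2.50 ± 0.365 FPKM), GLI3 (2.21 ± 0.0979 FPKM) and PTCH1 (1.21 ± 0.0918 FPKM), and the target gene GLI1 was at 0.0221 ± 0.0107 FPKM. Nuclear receptors were present in 25 of 47 cases, led by NR3C1, the glucocorticoid receptor (29.8 ± 0.602 FPKM), NR2F2 (25.6 ± 0.887 FPKM), NR1D2 (23.0 ± 0.424 FPKM) and NR2F6 (22.3 ± 0.941 FPKM). The oestrogen receptor gene ESR1 was at 0.365 ± 0.0551 FPKM and PGR was listed at 0.

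Matrix and adhesion lists held a few abundant members. ITGB1, the common integrin beta chain, stood at 622 ± 7.03 FPKM, with ITGA3 (152 ± 17.5 FPKM), ITGA6 (137 ± 2.54 FPKM) and ITGA2 (116 ± 1.43 FPKM) as the main alpha chains among 15 of 24 integrins present, whose list median was 2.28 FPKM. Of the laminins, proteins of basement membranes, LAMB3 (438 ± 52.8 FPKM, a locus joined with another symbol), LAMC1 (79.3 ± 3.61 FPKM) and LAMA3 (35.9 ± 2.83 FPKM) were among the 8 of 12 present. In that list 2 members stood at 100 FPKM or more in all 4 libraries, LAMB3 and another not reported here. CD44, the hyaluronan receptor, ranked 42 among all loci at 1125 ± 37.6 FPKM. The urokinase gene PLAU was abundant at 339 ± 16.2 FPKM, and MMP3 was listed at 0. Of 25 matrix collagens 14 were present, with a median of 1.79 FPKM, among them COL4A2 at 98.3 ± 16.9 FPKM and COL4A1 at 54.1 ± 6.58 FPKM, with COL5A1 at 59.2 ± 7.46 FPKM.

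Genes of antigen presentation differed by class. All 18 class I genes were present, with B2M, the invariant light chain, at 1408, 1703, 1722 and 1699 FPKM. HLA-C (339 ± 40.1 FPKM) and HLA-B (208 ± 28.2 FPKM) are each listed at several loci, so these values may cover only part of their reads. Of 16 class II genes 5 were present. CD74, the invariant chain, read 91.7, 97.4, 73.2 and 80.9 FPKM, while CIITA, the class II transactivator, was at 0.403 ± 0.0632 FPKM, HLA-DRA at 2.26 ± 0.170 FPKM (several loci) and HLA-DQA1 was listed at 0. CD274, encoding PD-L1, read 56.4, 54.8, 56.8 and 55 FPKM (chromosome 9, 5450503 to 5470567), above PDCD1LG2, encoding PD-L2 (13.9 ± 0.852 FPKM). NT5E and CD47 (52.3 ± 3.66 FPKM), an inhibitor of phagocytosis, were also high, and the costimulatory ligand CD80 was listed at 0. Of the cytokines 15 of 45 were present, with CCL2 (41.0 ± 3.51 FPKM), CXCL16 (40.4 ± 1.12 FPKM), IL18 (26.6 ± 1.32 FPKM) and IL11 (16 ± 1.06 FPKM) highest and IFNG, IFNL1, OSM, CSF3 and CXCL9 listed at 0. Their receptors numbered 25 of 44, led by TNFRSF12A (191 ± 8.45 FPKM), IL13RA1 (76.0 ± 1.67 FPKM), IL6ST (73.7 ± 3.62 FPKM) and OSMR (44.4 ± 2.28 FPKM).

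Among survival genes the BCL2 family was uneven. BCL2L1, encoding BCL-XL, read 147, 126, 136 and 140 FPKM, and MCL1 read 120, 109, 116 and 119 FPKM, each library of MCL1 below each of BCL2L1. BCL2 itself was listed at 0 in 3 libraries and at 0.0151 FPKM in the other. BCL2L11, encoding the death-promoting BIM, read 2.90, 2.61, 2.16 and 2.66 FPKM, so BCL2L1 stood 53.6 ± 6.33 times higher. Of the pro-apoptotic genes 18 of 19 were present, with PMAIP1, encoding NOXA (42.7 ± 5.29 FPKM), FADD (42.2 ± 2.22 FPKM), BID (27.7 ± 0.212 FPKM) and BAK1 (25.1 ± 1.20 FPKM) highest. BIRC5, encoding survivin, was at 69.6 ± 2.85 FPKM.

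All 25 proliferation genes were present, from PCNA (169 ± 15.8 FPKM) and AURKA (148 ± 5.36 FPKM) down to MKI67 (26.3 ± 1.83 FPKM). Of the G1 genes, CCND1 was followed by CDK4 (70.6 ± 1.66 FPKM), RB1 (34.7 ± 0.814 FPKM) and CDKN1A (29.1 ± 0.728 FPKM). The D-type cyclins were unequal, with CCND1 14.8 ± 0.833 times CCND3 (13.3 ± 0.201 FPKM) and CCND2 at 0.00800 ± 0.00689 FPKM. CDK4 exceeded CDK6 (9.14 ± 0.284 FPKM) 7.74 ± 0.421-fold.

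CDKN2A, encoding the cell cycle inhibitor p16, was listed at 0 in all 4 libraries (chromosome 9, 21967138 to 21994490), and so was its neighbour CDKN2B (chromosome 9, 21994790 to 22121093). Of all loci 24.4% were listed at 0 in all 4 libraries. None of 18 housekeeping genes and none of 75 ribosomal protein loci was among them, but those are abundant genes. Next to the pair, at lower coordinates, MTAP, a methionine salvage enzyme, read 0.402, 0.770, 0.716 and 0.414 FPKM. The noncoding CDKN2B-AS1, whose locus interval is that of CDKN2B, was at 0.390 FPKM in the mean. Some genes farther out were present, KLHL9 at 13.1 ± 0.466 FPKM, MIR31HG at 12.8 FPKM in the mean and FOCAD at 37.3 ± 0.872 FPKM on one side. On the other were DMRTA1 at 1.43 ± 0.101 FPKM, ELAVL2 at 5.99 ± 0.330 FPKM and TUSC1 at 5.44 ± 0.236 FPKM. Interferon genes on the first side were not present, IFNE at 0.308 ± 0.154 FPKM, IFNB1 at 0.0501 ± 0.0390 FPKM and IFNA1 at 0.0275 ± 0.0355 FPKM. Of the 16 loci listed for the region, CDKN2A and CDKN2B among them, 10 were present. CDKN2B-AS1 and MIR31HG were named after their values were seen. Why the pair is at 0 cannot be read from expression values and was not tested.

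The promoter of CDKN2A is shown as that of a gene at 0. It is taken in the same way (RefSeq, GRCh38.p14, chr9:21995275-21995574, minus strand) at the outermost start of the gene and holds 28 CG dinucleotides, in capitals. The gene has a further first exon not shown here, so these bases need not be the promoter of the p16 transcript.
CDKN2A: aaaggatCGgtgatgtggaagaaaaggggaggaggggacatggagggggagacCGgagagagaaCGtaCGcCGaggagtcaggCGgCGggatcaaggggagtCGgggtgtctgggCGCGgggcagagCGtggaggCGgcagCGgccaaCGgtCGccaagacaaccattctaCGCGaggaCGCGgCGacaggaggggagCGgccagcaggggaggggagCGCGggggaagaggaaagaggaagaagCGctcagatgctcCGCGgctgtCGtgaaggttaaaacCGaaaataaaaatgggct

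Over all 35116 promoters of that table the median was 14 CG dinucleotides in the same 300 bases. A count of 4 or fewer was found in 29.6% of them and a count of 28 or more in 26.2%. At the starts shown, EGFR, at 77.7 FPKM, and CDKN2A, at 0, thus both had a count of 28 or more, and SFTPB one of 4 or fewer. A comparison of promoter content with level over all loci was void, because only 72.1% of the 19741 loci with protein-coding transcripts, and 50.9% of those listed at 0, had a promoter in the table.

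**Figure D4:**
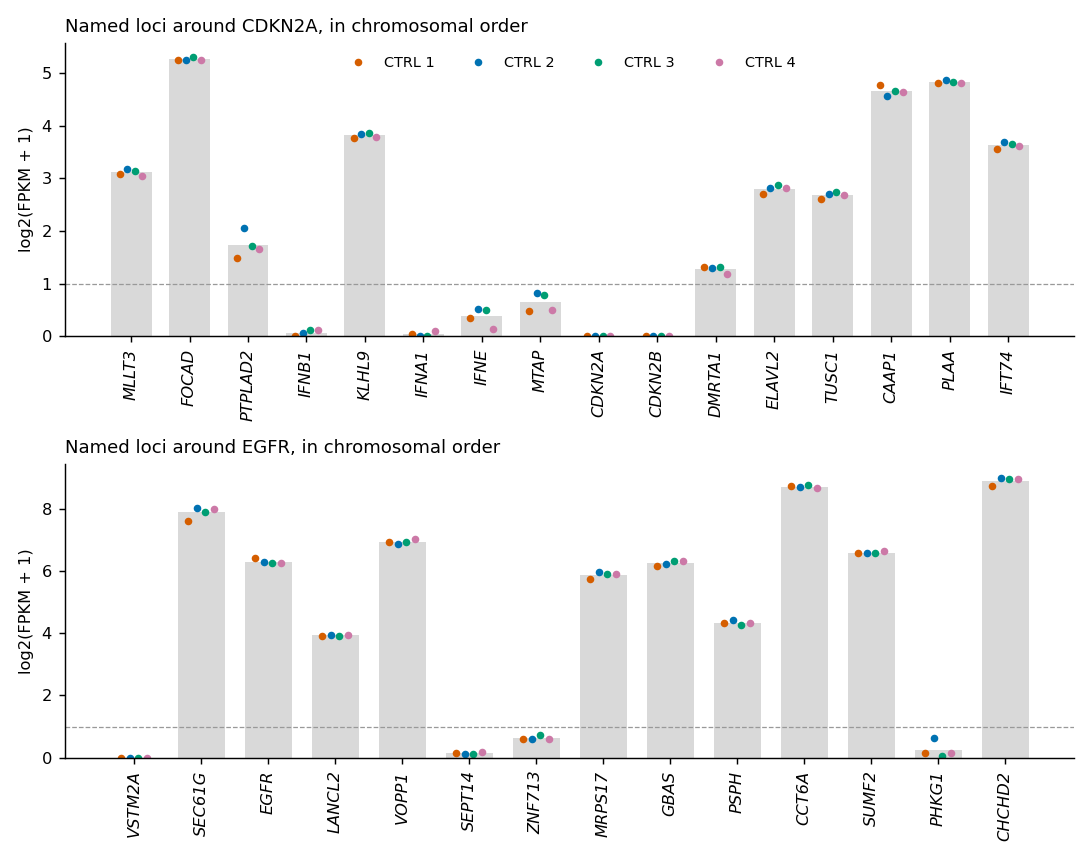
Values of log2(FPKM + 1) of each vehicle library (points) and their mean (bars from 0) for named loci in chromosomal order around CDKN2A (upper panel) and around EGFR (lower panel). The dashed line marks 1 FPKM, and distances are not to scale. CDKN2A and CDKN2B are at 0 between MTAP (0.576 FPKM) and DMRTA1 (1.43 FPKM). Around EGFR, SEC61G (235 FPKM) and VOPP1 (121 FPKM) stand above it and LANCL2 (14.3 FPKM) below it.

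EGFR had abundant neighbours: 10 of the 14 named loci of its region, EGFR itself among them, were present. CHCHD2, a mitochondrial protein gene (478 ± 40.1 FPKM), the chaperonin gene CCT6A (417 ± 13.5 FPKM), the translocon gene SEC61G (235 ± 29 FPKM) and VOPP1 (121 ± 5.49 FPKM) exceeded EGFR, and VSTM2A was listed at 0. In the CCND1 region likewise 10 of 14 were present, CCND1 itself among them. CTTN, encoding cortactin (81.6 ± 8.15 FPKM), and DHCR7 (81.1 ± 6.63 FPKM) came next to CCND1 in level, and the growth factor gene FGF4 was listed at 0.

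Of 18 lung cancer tumour suppressors 14 were present. Beside RB1, named above, KEAP1 (23.8 ± 1.7 FPKM), a brake on NRF2, and the chromatin remodeller SMARCA4 (22.9 ± 2.72 FPKM) were among the highest. STK11 stood at 17.4 ± 2.61 FPKM, and FHIT was at 0.0576 ± 0.0266 FPKM. In the list of cancer-testis genes, most of which are normally limited to the germline, 5 of 27 were present, LAGE3 (12.9 ± 1.39 FPKM), which somatic tissues also express, CT83 (7.65 ± 0.968 FPKM), XAGE1A (6.19 ± 0.473 FPKM, several loci), MAGEA12 (5.00 ± 0.821 FPKM) and PRAME (2.77 ± 0.175 FPKM), and 7 were listed at 0, MAGEA1 among them.

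NRF2 targets were present in 19 of 26 cases, headed by the ferritin chains FTH1 (1058 ± 112 FPKM) and FTL (512 ± 45.4 FPKM), thioredoxin TXN (407 ± 45.5 FPKM) and its reductase TXNRD1 (151 ± 3.13 FPKM). NQO1 was at 101 ± 4.12 FPKM, but the aldo-keto reductases AKR1C1 (0.0731 ± 0.0571 FPKM) and AKR1C2 (0.0303 ± 0.0152 FPKM) were near 0 and CES1 was listed at 0. Among aldehyde dehydrogenases ALDH1A3 read 129, 119, 122 and 123 FPKM, while its paralogue ALDH1A1 was at 0.00303 ± 0.00606 FPKM and ALDH1A2 was listed at 0. Drug transporters and cytochromes were present in 10 of 25 cases. ABCC1 (19.3 ± 1.06 FPKM), ABCC3 (11.5 ± 0.827 FPKM) and ABCC4 (8.94 ± 0.260 FPKM), multidrug resistance proteins, led, whereas ABCB1, encoding P-glycoprotein, was at 0.0332 ± 0.00808 FPKM and ABCG2 at 1.88 ± 0.156 FPKM. The cytochrome CYP3A4, which takes part in gefitinib clearance in liver, was at 0.0152 ± 0.0194 FPKM.

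The 4 libraries were alike, with Pearson correlations of log2 values of 0.9936 to 0.9977 across the 11596 loci with a mean of 1 FPKM or more. Loci are not independent replicates, so these are descriptions. Over the same loci the median coefficient of variation between libraries was 6.44%. It was 8.54% for loci of 1 to 5 FPKM and 5.36% for loci of 50 to 100 FPKM, and 76.2% of the 11596 loci varied by less than 10%. The steadiest loci of 5 FPKM or more were THYN1, at 18.5 FPKM in all 4 libraries (0.122%), OAT (121 FPKM, 0.232%), TMEM87B (24.6 FPKM, 0.360%), FN3KRP (25.9 FPKM, 0.398%) and RNF19A (9.77 FPKM, 0.459%). Of the 10 most variable, 3 were small nucleolar RNAs within host genes. SNORD78 stood at 47.6 FPKM in CTRL 1 and at 0 in the other 3, SNORD47 ran from 0 to 8.59 FPKM and SNORD139 from 37.8 to 185 FPKM. The hypoxia-linked antisense RNA HIF1A-AS2 (6.63 to 35.5 FPKM) followed the first of these, and the interferon-induced genes MX1 (6.42 to 17.1 FPKM) and MX2 (4.37 to 8.27 FPKM) were also among the 10. RPS10P7, ATP1A1OS, C16orf87 and C4orf48 made up the rest, with coefficients of 35.3% to 50.1%. An antisense gene such as HIF1A-AS2 or ATP1A1OS cannot be told apart from its partner without strand, and whether strand was used is not stated.

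CTRL 1 differed most from the rest. It lay outside the other 3 at 501 loci (383 higher and 118 lower), by a gap over the 95% critical value of Dixon's ratio. These were 4.32% of the loci with a mean of 1 FPKM or more. CTRL 2, 3 and 4 lay outside at 99, 73 and 79 loci. All 4 libraries together gave 752 loci (6.48%), where chance gives about 1 in 20. CTRL 1 was the highest library at 44.3% of the loci with a mean of 1 FPKM or more. Its deviation went with base composition: in the 20% of loci with the lowest transcript GC content its median deviation was -0.052 on the log2 scale, and in the 20% with the highest it was 0.13. The Spearman correlation across loci of the deviation with GC content was 0.608 for CTRL 1, -0.328 for CTRL 2, -0.597 for CTRL 3 and 0.0212 for CTRL 4. That with transcript length was smaller in size than the GC value in CTRL 1 to 3, at 0.162, -0.174, -0.0693 and 0.0157 for CTRL 1 to 4. Each deviation is taken from the mean of the same 4 libraries, so a trend in any library forces opposite trends among the others. GC content and length were known for 97.1% of these loci. EGFR, ERBB2, ERBB3, AXL, GAS6, EPHA2, WNT7B and AMOTL2 were all highest in CTRL 1, and the part of GC content in that was not tested.

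CTRL 4 was highest at 11.1% of the 11596 loci with a mean of 1 FPKM or more. Of the interferon-stimulated genes with such a mean, it was highest at 29 of 37 (78.4%). These genes are switched on by cells after interferon or viral RNA. Their median ratio of CTRL 4 to the mean of the other 3 libraries was 1.17, against 0.983 over the 11596 loci. Among the 11596 loci 13 were at or above 1.5-fold, and 7 of these were in the interferon-stimulated list: MX1 (2.38), OAS2 (2.18), MX2 (1.82), IFIT1 (1.58), CMPK2 (1.55), RSAD2 (1.54) and IFI27 (1.53). Of the other 6, 5 were small nucleolar RNAs, which included the 3 largest ratios, SNORD36C (5.99), SNORA25 (4.54) and SNORD139 (2.91). The abundant members moved less, with IFITM3 at 297, 312, 281 and 304 FPKM and ISG15 at 119, 95.7, 94.7 and 119 FPKM. Type I interferon genes themselves were near 0, IFNB1 at 0.0501 ± 0.0390 FPKM and IFNA1 at 0.0275 ± 0.0355 FPKM. What set CTRL 4 apart was not tested.

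**Figure D5:**
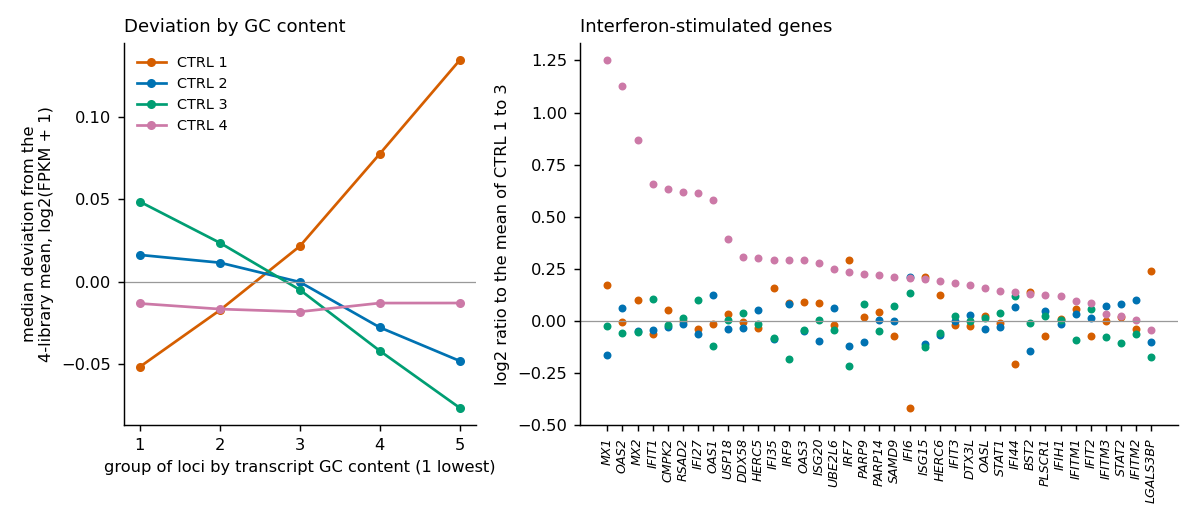
Left, median deviation of each vehicle library from the mean of the 4, in log2(FPKM + 1), for 5 equal groups of loci by transcript GC content, where CTRL 1 runs from -0.052 to 0.13. Right, log2 ratio of each library to the mean of CTRL 1 to 3 for 37 interferon-stimulated genes, ordered by the ratio of CTRL 4, which for MX1 is 2.38 before the logarithm.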

How the data were processed

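Polyadenylated RNA of HCC4006 was extracted with a miRNeasy kit and sequenced from TruSeq libraries, per the labels' protocols. The deposited values are FPKM, which the authors made with TopHat 1.4.1, Cufflinks 1.3.0 and Cuffdiff on hg19, per the submitters' processing notes. What each tool did, the annotation and any further scaling are not given in the sources used here. FPKM divides by transcript length and library total, so a locus of short or joined transcripts is less certain. Depth is unknown, and 0 per-sample columns had no sample.

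Values were used as deposited, with Python 3.11.15, numpy 2.4.6 and pandas 2.3.3. Of 24293 loci, 643 lacked a symbol and 27 had a date for one, and 589 of these were named by RefSeq transcript. Joined symbols (429 loci) and symbols held by several loci (1926) are marked where printed. Coordinates are locus intervals on hg19, which overlapping genes can share. GC content and length came from a later annotation by name. Promoters are RefSeq's and were matched by symbol for 14856 loci, after 3 matches on another chromosome were dropped.

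The 69 lists held 1330 genes, of which 1324 matched. Members and lists were chosen with earlier results of these data known. Named genes were to be each list's 4 most abundant members, members at 0, cell type markers, the 20 most abundant loci, the 10 most and 5 least variable loci of at least 5 FPKM, and 28 fixed genes. The text prints part of these, some are not reported here, and other genes it names were chosen after their values were seen. A pseudocount of 1 was used on the log2 scale. The calculations were tested on simulated data. Alternatives were other minimums, means in place of all 4 libraries, other scalings, the pseudocount, and leaving out each library.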

Additional observations from a re-analysis of the deposited data

Results flagged for a closer look

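Of 53 gene lists and 48 single genes examined, 3 lists and 4 genes had 1 library far from the other 3 by Dixon's ratio, which chance gives in about 1 of 20 groups of 4. The interferon-stimulated list had a mean log2(FPKM + 1) of 4.17 in CTRL 4 and of 3.88 to 3.92 in the others. In CTRL 1 the destruction complex and tankyrase list stood at 4.05 against 3.97 to 3.98, and the NRF2 target list at 5.36 against 5.30 to 5.31. Among single genes, CCND1 was at 210 FPKM in CTRL 1 against 191 to 193. TPT1, an abundant translation-linked gene, was at 1669 FPKM in CTRL 1 against 2010 to 2065, and B2M at 1408 FPKM in CTRL 1 against 1699 to 1722. S100A6 was at 1923 FPKM in CTRL 4 against 2055 to 2066. Of these 7, CTRL 1 was the one apart in 5 and CTRL 4 in 2.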

How the results depend on the processing

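The count of present loci was 11370 and ran from 10190 at a minimum of 2 FPKM to 12306 at 0.5 FPKM, and from 11400 to 11418 when a library was left out. Of 690 recomputed list counts, 676 stayed within 1.5 times. At 0.5 FPKM the basal and squamous list had 10 present members, and the ciliated list 4, the neuroendocrine list 4 and the leukocyte list 2. Rescaled to TPM, these were 11, 4, 4 and 2, and by the mean of the 4 libraries the ciliated list had 2. At 2 FPKM fibroblast genes numbered 0, endothelial 1, breast and urothelial 2, Wnt ligands 4, and drug transporters and cytochromes 6. All 168 recomputed levels of the fixed genes stayed within 1 SD. With a library left out this was fixed in advance, since dropping 1 of 4 values cannot move a mean that far. Of 28 ranks recomputed over loci with 1 unshared symbol, which leaves fewer loci to rank, 20 moved. The median coefficient of variation was 9.69% with no filter on low values, and 4.45% to 6.79% when a library was left out, the lowest without CTRL 1. The interferon-stimulated excess of CTRL 4 (0.27 on the log2 scale) was 0.31 with a pseudocount of 0.1, 0.25 at a minimum mean of 5 FPKM, 0.30 with median-ratio scaling and 0.30 with quantile normalization. The causes were not tested. No paired analysis was possible because only 1 group is described and no test was made. Without read counts, the error of values near 0 is unknown.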
